A study of Mus musculus with 26 samples.

Results

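The transcripts described here encode 7 proteins of the cascade that carries signals from receptor tyrosine kinases to the nucleus: the RAS proteins NRAS and HRAS, the RAF kinases BRAF and ARAF, the MEK kinases MEK1 (gene Map2k1) and MEK2 (gene Map2k2), and the ERK kinase ERK1 (gene Mapk3). They were chosen by gene symbol, and all 7 were found among the 55391 named genes of the count table. RNA sequencing covered EA1, EA2 and EA3, which are murine lung cancer cell lines driven by the fusion of Eml4 and Alk. The lines came from lung tumors that an adenovirus with Cas9 and guide RNAs against Eml4 and Alk had induced in C57BL/6 mice. Each group is therefore 1 cell line of 1 origin. Cells were cultured in serum-containing medium with 100 nM alectinib, an inhibitor of the ALK kinase, or with its solvent DMSO at 0.1%. Each line was sampled on days 1, 2, 3 and 5 with a single library for each treatment, 24 libraries in all, so that 4 stand behind every group of a line and treatment. Another 2 libraries were labelled EA3 day 7 and were kept out of the comparisons.

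A receptor tyrosine kinase loads RAS, a small GTPase at the inner face of the plasma membrane, with GTP. RAS then recruits RAF, which phosphorylates MEK, and MEK phosphorylates ERK, which acts on kinases, transcription factors and other substrates in the cytoplasm and nucleus. EML4-ALK is a tyrosine kinase that is active without a ligand and signals through this cascade, so that ALK inhibitors lower ERK phosphorylation. Activity of these proteins is set by GTP and by phosphate groups, neither of which RNA counts measure.

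Library totals ran from 5780062 to 11732401 counts (median 9252878), and each of the 7 genes held between 146 and 4873 counts in every library. Expression is given in CPM, the count of a gene scaled by the total of its library and by edgeR's TMM factors. The alectinib effect is the log2 fold change of alectinib over DMSO with its standard error, from the quasi-likelihood test of edgeR, in which every pair of libraries of a line and day formed a block, and a gene was called at an adjusted p-value (Benjamini-Hochberg) under 0.05 over 14264 genes tested. The 4 days of a line served as replicates. No culture was repeated within a day. P-values of the alectinib effect therefore measure how the same-day difference between treatments varied from day to day, pooled over the lines. Any change of the effect with time is part of this variation. Bulk RNA cannot tell fewer cells of a kind from less RNA per cell. Alk transcripts were present in all groups, with 72.0 ± 8.9 CPM (SD, n = 4 days) in EA1, 120.3 ± 18.4 in EA2 and 83.1 ± 13.1 in EA3 in DMSO. In alectinib they stood at 47.1 ± 7.7, 111.2 ± 14.8 and 52.6 ± 2.4 CPM, under all DMSO values in EA1 and EA3 but not in EA2. Of 2 lung markers, Nkx2-1 and Sftpc summed to at most 0.757 CPM in any library, whereas 6 epithelial genes summed in DMSO and alectinib to 4633 to 9252 and 3245 to 5367 CPM (EA1), 1811 to 2695 and 567 to 1169 CPM (EA2), and 4681 to 6777 and 2974 to 6747 CPM (EA3). The treatments did not overlap in EA2, the line of the Braf call below, but the 6 genes did not move one way. The keratin gene Krt18 fell in all lines (-1.51, -1.79 and -1.13) and Krt8 in EA2 (-2.61), whereas Cdh1, which encodes E-cadherin, rose by 1.55 in EA2 and by 0.65 in EA3 (adjusted p = 0.000116 and 0.0237) and Epcam rose in EA1 (2.45, adjusted p = 0.00497). Epcam was among the 6 at 132.2 ± 60.1 CPM in EA3 DMSO, 1.4 ± 1.4 in EA1 and 0.5 ± 0.2 in EA2, where 0 counts were found in alectinib. The summed level of 7 fibroblast genes was 8.34 to 43.0 CPM in EA1 DMSO and 81.6 to 224 CPM in EA1 alectinib, 57.9 to 71.2 and 119.7 to 239 CPM in EA2, and 10.2 to 20.1 and 84.4 to 250 CPM in EA3. Summed immune genes did not exceed 93.6 CPM and endothelial genes 9.39 CPM. Of the immune genes, Cd68 alone reached 91.6 CPM in EA3 DMSO, and Csf1r reached at most 6.87 CPM. Ptprc had at most 4 counts in a library, and Cd3e and Adgre1 at most 1. The part of these cells or programs in the results below was not tested.

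RAS genes were expressed in all 24 libraries, and neither passed the test for alectinib in any line. Nras, on chromosome 3 from 103058285 to 103067914 (mm10, plus strand), encodes one of the classical RAS GTPases. In EA1, Nras stood at 181, 161, 199.9 and 151 CPM on days 1, 2, 3 and 5 in DMSO and at 188, 152, 139.9 and 136 CPM in alectinib. EA2 cells held 214, 235, 163 and 195 CPM in DMSO and 221, 228, 157 and 247 CPM in alectinib. EA3 cells held 206, 151, 169 and 132 CPM in DMSO and 204, 158, 150.1 and 106 CPM in alectinib. DMSO and alectinib values of Nras overlapped in every line, and the same-day log2 ratio was above 0 on 4 of 12 days and below it on 8. The alectinib effect on Nras was -0.17 (SE 0.13, adjusted p = 0.304) in EA1, 0.07 (SE 0.13, adjusted p = 0.724) in EA2 and -0.11 (SE 0.13, adjusted p = 0.539) in EA3, and the 95% intervals of the 3 lines lay between -0.44 and 0.34.

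Hras, on chromosome 7 from 141189105 to 141194005 (minus strand), encodes another RAS GTPase, which like NRAS is held at membranes by a farnesyl and a palmitoyl anchor. EA1 cells held 86.1, 86.9, 76.6 and 47.7 CPM of Hras in DMSO and 73.2, 75.6, 50.5 and 61.6 CPM in alectinib. In EA2, the values were 71.6, 100.5, 44.6 and 57.3 CPM in DMSO and 59.6, 101, 49.97 and 77.0 CPM in alectinib. In EA3, they were 72.0, 62.4, 29.6 and 37.1 CPM in DMSO and 56.5, 52.8, 43.1 and 35.9 CPM in alectinib. Hras was highest on day 1 or 2 and lowest on day 3 or 5 in each line and treatment, and DMSO and alectinib overlapped in each line. Its alectinib effect was -0.17 in EA1 (SE 0.18, adjusted p = 0.488), 0.08 in EA2 (SE 0.18, adjusted p = 0.783) and -0.03 in EA3 (SE 0.18, adjusted p = 0.923). Within a library, the log2 ratio of Hras to Nras averaged -1.55 in DMSO and -1.51 in alectinib, a difference of 0.03 ± 0.34 (SD, n = 12 same-day pairs), and the pairs were divided 6 to 6 by direction (exact two-sided sign-flip permutation test, p = 0.738, adjusted p = 0.738 over 3 ratios).

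**Figure D1:**
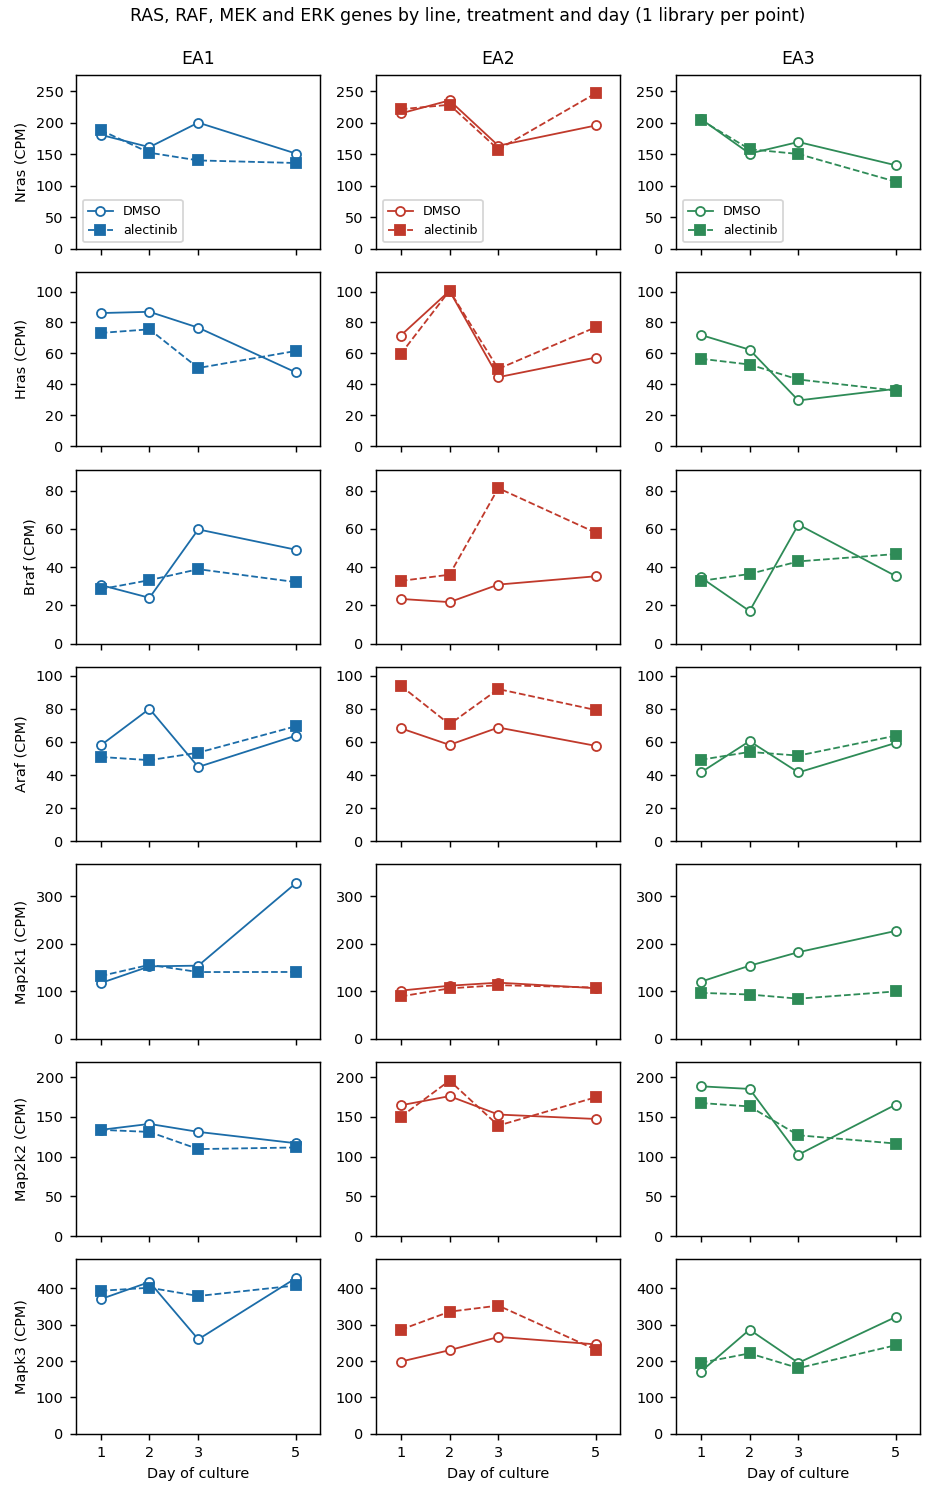
CPM of the 7 genes (rows) in EA1, EA2 and EA3 (columns) by day of culture, with 1 library per point, open circles for DMSO and filled squares for alectinib, and axes that start at 0. The 4 alectinib points of Map2k1 in EA3 lie between 84.0 and 99.3 CPM, under all 4 DMSO points of that line, whereas the points of the other genes cross or run close together except for Braf and Araf in EA2.

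RAF genes had the lowest median levels of the 7 in DMSO per kilobase of all exons, though not for Araf on principal transcript length, and one of them, Braf, was higher with alectinib in EA2. Braf, on chromosome 6 from 39603237 to 39725463 (minus strand), encodes the RAF kinase with the highest basal activity toward MEK. In EA2, Braf stood at 23.4, 21.7, 30.9 and 35.2 CPM in DMSO and at 32.8, 36.1, 81.3 and 58.0 CPM in alectinib. EA1 cells held 30.6, 23.95, 59.7 and 49.1 CPM in DMSO and 28.5, 33.2, 38.9 and 32.2 CPM in alectinib. EA3 cells held 34.6, 17.0, 62.3 and 35.3 CPM in DMSO and 32.8, 36.4, 43.0 and 46.9 CPM in alectinib. On each of the 4 days the EA2 alectinib library exceeded the DMSO library of that day, although the lowest alectinib value (32.8 CPM) lay under the highest DMSO value (35.2 CPM). Braf rose in EA2 by 0.84 on the log2 scale (SE 0.25, 95% interval 0.30 to 1.37, adjusted p = 0.0254), with values of -0.22 (SE 0.25, adjusted p = 0.507) in EA1 and 0.21 (SE 0.25, adjusted p = 0.55) in EA3. It was the one gene of 7 called in EA2, where 24.4% of all genes tested were called and 13.0% were called higher. The call was lost without the day block (0.90, adjusted p = 0.0577) and when day 1 (0.95, adjusted p = 0.0536), day 3 (0.64, adjusted p = 0.113) or day 5 (0.87, adjusted p = 0.0779) was left out.

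The promoter of Braf is shown because this gene was called in EA2, within the limits just given. The 250 bases before its annotated start (RefSeq, GRCm38.p6, minus strand, chr6:39725464-39725713) are printed in lower case, with motif matches on either strand in capitals. Searched were the cyclic AMP response element TGACGTCA, the GC box GGGCGG, the CCAAT box CCAAT, the ETS core CCGGAAG, the AP-1 site TGANTCA and the E-box CACGTG.
Braf: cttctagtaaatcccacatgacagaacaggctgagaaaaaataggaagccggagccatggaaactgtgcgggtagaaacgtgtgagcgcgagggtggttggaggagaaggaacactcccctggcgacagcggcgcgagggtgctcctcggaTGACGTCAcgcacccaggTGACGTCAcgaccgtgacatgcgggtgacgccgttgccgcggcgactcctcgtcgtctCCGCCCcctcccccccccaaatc
Capitals mark 2 cyclic AMP response elements, which begin 99 and 81 bases before the start, and 1 GC box. At least 1 cyclic AMP response element occurred in 1.55% of the 32851 promoters of this length in the table, and a GC box in 32.7%. The match is a description of the letters, and binding was not measured.

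Libraries differed in how much long transcripts contributed relative to short ones, and Braf, which has 13862 bases of exon sequence, varied with this balance. An index was computed for each library as the median log2 CPM, centred within a line, of 2354 genes with at least 8000 exon bases minus that of 2714 genes with at most 2000. In EA2 it was -0.28, -0.16, 0.04 and -0.09 in DMSO and 0.15, -0.40, 0.52 and 0.43 in alectinib on days 1, 2, 3 and 5. Braf correlated with the index at r = 0.79 over the 24 libraries, which share lines and culture days, while r lay between -0.44 (Map2k2) and 0.04 (Nras) for the other members. With the index as a covariate the effect on Braf in EA2 was 0.55 (adjusted p = 0.0402).

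**Figure D2:**
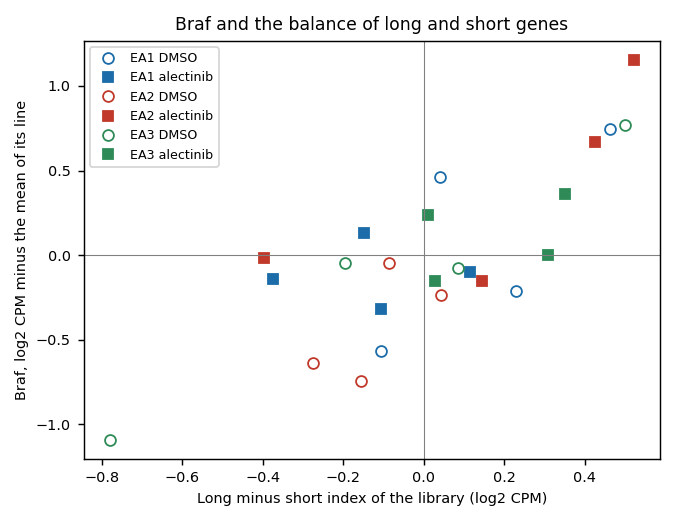
Braf in each of the 24 libraries, as log2 CPM minus the mean of its line, against the long minus short index of the library (log2 CPM units), with colors for lines, open circles for DMSO and filled squares for alectinib. Libraries with a high index, such as EA2 alectinib on day 3 (0.52) and EA3 DMSO on day 3 (0.50), also held the most Braf of their line.

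Araf, on chromosome X from 20797814 to 20860519 (plus strand), encodes a RAF kinase that is a weaker activator of MEK. Values in EA2 were 68.3, 58.3, 68.8 and 57.7 CPM in DMSO and 94.1, 70.7, 92.0 and 79.3 CPM in alectinib. EA1 cells held 57.9, 80.1, 44.9 and 63.9 CPM of Araf in DMSO and 50.9, 49.0, 53.5 and 69.5 CPM in alectinib. EA3 cells held 41.5, 60.5, 41.6 and 59.5 CPM in DMSO and 49.2, 54.0, 51.8 and 63.8 CPM in alectinib. All 4 alectinib values of EA2 lay above all 4 DMSO values, with same-day log2 ratios between 0.28 and 0.46, while the groups overlapped in EA1 and EA3. The EA2 value was 0.41 (SE 0.15, 95% interval 0.08 to 0.73) and missed the threshold (adjusted p = 0.067), which it passed with DESeq2 (0.39, adjusted p = 0.04998), with EA2 fitted alone (0.39, adjusted p = 0.0232) and with the long minus short index as a covariate (0.51, adjusted p = 0.0212). Effects in EA1 (-0.13, SE 0.15, adjusted p = 0.537) and EA3 (0.12, SE 0.15, adjusted p = 0.564) were not called. Across lines the log2 ratio of Braf to Araf within a library differed between treatments by 0.15 ± 0.75 (SD, n = 12 pairs), with 8 pairs higher and 4 lower in alectinib (exact two-sided sign-flip permutation test, p = 0.505, adjusted p = 0.738).

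MEK genes gave the clearest difference of the 7, since Map2k1 fell with alectinib in EA3 and over the 3 lines, whereas no effect on Map2k2 was called. Map2k1, on chromosome 9 from 64185770 to 64253631 (minus strand), encodes MEK1, and Map2k2, on chromosome 10 from 81105915 to 81133975 (plus strand), encodes MEK2, the closely related kinase that also phosphorylates ERK. In EA3, Map2k1 stood at 119.7, 153, 182 and 227 CPM in DMSO and at 96.3, 92.8, 84.0 and 99.3 CPM in alectinib. In EA1, it stood at 117, 152, 154 and 327 CPM in DMSO and at 132, 155, 140.1 and 140.3 CPM in alectinib. EA2 cells held 101, 111, 118 and 106 CPM in DMSO and 88.8, 106, 112 and 108 CPM in alectinib. In EA3 all alectinib values lay under all DMSO values and the distance widened from day to day, because Map2k1 was higher in each later DMSO library and the alectinib libraries stayed between 84.0 and 99.3 CPM. EA1 showed a wide distance on day 5 alone, and EA2 showed neither the higher late DMSO values nor a distance between treatments.

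Map2k1 fell in EA3 by 0.84 on the log2 scale (SE 0.20, adjusted p = 0.00707), the one call among the 7 genes in this line, where 32.6% of all genes tested were called and 15.1% were called lower. Its values were -0.28 (SE 0.20, adjusted p = 0.299) in EA1 and -0.08 (SE 0.20, adjusted p = 0.821) in EA2. Over the 3 lines Map2k1 fell by 0.40 (SE 0.12, adjusted p = 0.0116), with 9 of 12 same-day pairs lower, and it was the one gene of 7 called there, against 50.1% of all genes. Both calls held under every alternative that was run, with the EA3 effect between -1.01 and -0.72 and the mean effect between -0.50 and -0.28. In EA1 the effect was -0.02 (adjusted p = 0.95) without day 5. Same-day log2 ratios were 0.17, 0.03, -0.13 and -1.22 in EA1 and -0.31, -0.73, -1.11 and -1.19 in EA3 on days 1, 2, 3 and 5. The change of the effect per doubling of days was -0.56 (SE 0.16) in EA1, 0.08 (SE 0.16) in EA2 and -0.40 (SE 0.16) in EA3, with a mean of -0.29 (SE 0.09) that did not pass the threshold (edgeR, adjusted p = 0.102). By edgeR, 0 of the 7 genes had a called change over days, against 3.02% of all genes, 1 of them had an unadjusted p under 0.05, and DESeq2 called Map2k1 (-0.31, adjusted p = 0.0233).

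Genes of S phase and mitosis (7 genes) were measured beside Map2k1, because DMSO cultures changed with time. Their summed level in DMSO was 3136, 1784, 1016 and 902 CPM in EA1, 2741, 1470, 868 and 755 CPM in EA3 and 2327, 2568, 1604 and 2100 CPM in EA2 on days 1, 2, 3 and 5. Thus the lines with late DMSO libraries high in Map2k1 were those in which these genes were lower in each later DMSO library. In alectinib the sum lay between 720 and 1159 CPM in EA1, 458 and 1673 CPM in EA2, and 451 and 930 CPM in EA3. The part of growth state in the Map2k1 result was not tested.

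Map2k2 stood at 134, 141, 131 and 117 CPM in DMSO and 134, 131, 109 and 112 CPM in alectinib in EA1. It stood at 165, 176, 153 and 147 CPM in DMSO and 150.0, 196, 139 and 175 CPM in alectinib in EA2. It stood at 189, 185, 102 and 166 CPM in DMSO and 167, 163, 127 and 116 CPM in alectinib in EA3. Treatments overlapped in every line, and the alectinib effect was -0.11 (SE 0.13, adjusted p = 0.553) in EA1, 0.03 (SE 0.13, adjusted p = 0.897) in EA2 and -0.14 (SE 0.13, adjusted p = 0.456) in EA3. The log2 ratio of Map2k1 to Map2k2 within a library, which does not depend on the scaling of libraries, was -0.66, -0.27, 0.83 and 0.45 in DMSO and -0.80, -0.81, -0.59 and -0.23 in alectinib in EA3. Alectinib thus had the lower ratio on 4 of 4 days in EA3, by 0.70 ± 0.53 (SD), whereas 3 of 4 pairs were higher in EA1 and 3 of 4 were lower in EA2. Over 12 pairs the difference was -0.33 ± 0.52 (SD), with 8 lower, at an unadjusted p of 0.0488 in the exact two-sided sign-flip permutation test and an adjusted p of 0.146. When single days were left out it ranged from -0.44 to -0.21, with the smallest size without day 5 (exact permutation test, adjusted p = 0.621). For the 4 pairs of 1 line the smallest p of this test is 0.125.

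**Figure D3:**
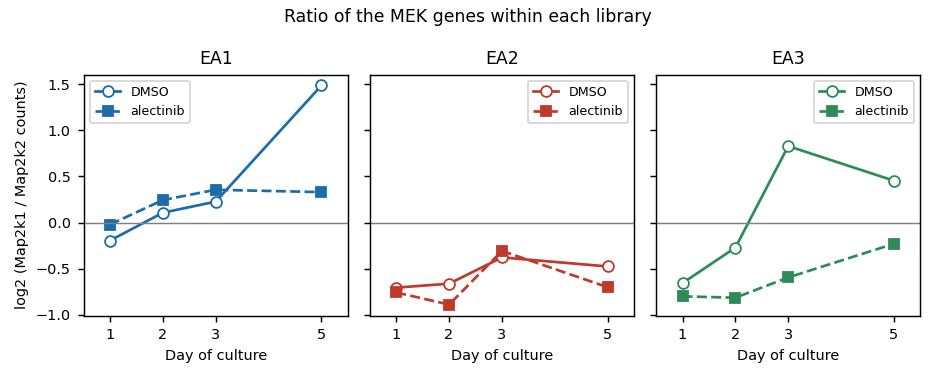
The log2 ratio of Map2k1 to Map2k2 counts within each library (y axis) by day of culture (x axis) in EA1, EA2 and EA3, with open circles for DMSO, filled squares for alectinib and a line at equal counts. In EA3 the alectinib ratio stays below 0 on all days, while the DMSO ratio passes from -0.66 to above 0, and in EA1 DMSO reaches 1.49 on day 5.

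The promoters of the MEK genes are shown because Map2k1 was called in EA3 and Map2k2 was not. The difference between the paralogs is not shown, since the test of their ratio over the 3 lines did not pass the threshold and none within EA3 could. The 250 bases before the annotated starts (RefSeq, GRCm38.p6) are at chr9:64253606-64253855 on the minus strand for Map2k1 and chr10:81105665-81105914 on the plus strand for Map2k2, searched and printed as for Braf.
Map2k1: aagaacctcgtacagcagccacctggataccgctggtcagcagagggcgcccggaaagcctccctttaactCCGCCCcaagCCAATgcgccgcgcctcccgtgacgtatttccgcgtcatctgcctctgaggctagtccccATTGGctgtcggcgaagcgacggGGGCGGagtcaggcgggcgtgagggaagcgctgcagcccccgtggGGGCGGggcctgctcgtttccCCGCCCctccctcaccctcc
Map2k2: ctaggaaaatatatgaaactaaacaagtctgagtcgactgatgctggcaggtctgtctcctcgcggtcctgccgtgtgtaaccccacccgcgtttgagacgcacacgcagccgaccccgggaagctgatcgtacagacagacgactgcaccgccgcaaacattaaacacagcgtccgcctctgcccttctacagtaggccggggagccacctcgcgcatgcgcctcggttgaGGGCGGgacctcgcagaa
Capitals mark 4 GC boxes and 2 CCAAT boxes in Map2k1, and 1 GC box in Map2k2. A CCAAT box occurred in 33.8% of all promoters of this length. No match to the cyclic AMP response element, the ETS core (6.91% of promoters), the AP-1 site (6.75%) or the E-box (6.02%) was present in either window. GC content was 68.4% in Map2k1 and 59.6% in Map2k2, against a median of 52.4% over all promoters. The table held promoters of 6 of the 7 genes and none for Mapk3.

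ERK1 transcripts had the highest median level of the 7 in DMSO per kilobase, on either length, and their level did not pass the test for alectinib in any line. Mapk3, on chromosome 7 from 126759601 to 126765819 (plus strand), encodes ERK1, the kinase at the end of the cascade. EA1 cells held 371, 418, 259.7 and 429 CPM of Mapk3 in DMSO and 394, 402, 379 and 408 CPM in alectinib. EA2 cells held 198, 229.8, 266 and 246 CPM in DMSO and 286, 336, 353 and 231 CPM in alectinib. EA3 cells held 171, 286, 195 and 322 CPM in DMSO and 195, 221, 180.5 and 244 CPM in alectinib. In EA2 the alectinib library was the higher one on days 1, 2 and 3 but not on day 5, and the treatments overlapped in every line. The effect was 0.13 (SE 0.15, adjusted p = 0.542) in EA1, 0.35 (SE 0.15, 95% interval 0.02 to 0.68, adjusted p = 0.115) in EA2 and -0.17 (SE 0.15, adjusted p = 0.409) in EA3. The EA2 value passed the threshold when the long minus short index was a covariate (0.45, adjusted p = 0.0403).

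By edgeR, 0 of the 7 genes were called in EA1, where 33.6% of all genes tested were called, 0 had an unadjusted p under 0.05, and DESeq2 called 0. The shares of the 7 genes called, at most 1 of 7 in a line, were near or below those of all genes and set the cascade apart in no line. The size of the alectinib effect had a median of 0.17 over the 7 genes in EA1 against 0.51 over all genes tested, 0.08 against 0.42 in EA2 and 0.14 against 0.49 in EA3. All genes tested include genes with far fewer counts than these 7, and the medians were not matched for expression. The gap in size is therefore not read as a trait of the cascade. The summed level of the 7 genes was 1037 ± 113 CPM (SD, n = 4 days) in DMSO and 967 ± 41.5 CPM in alectinib in EA1, 866 ± 44.5 and 991 ± 58.9 CPM in EA2, and 877 ± 87.1 and 743 ± 56.8 CPM in EA3. Compared on the same day, the sum was higher with alectinib on every day in EA2 and lower on every day in EA3. In EA1 it was higher on day 1 alone. The sums were not tested. Whether the lines responded alike was tested directly, and by edgeR 0 of the 7 genes differed in their alectinib effect between lines, against 6.84% of all genes. Unadjusted p-values were under 0.05 for 2 of them, Braf (adjusted p = 0.152) and Map2k1 (adjusted p = 0.198). DESeq2 called 0, and Braf was called when genes with low counts were kept (adjusted p = 0.0202). The effects on Braf in EA2 and on Map2k1 in EA3 are therefore not shown to differ from those in the other lines.

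**Figure D4:**
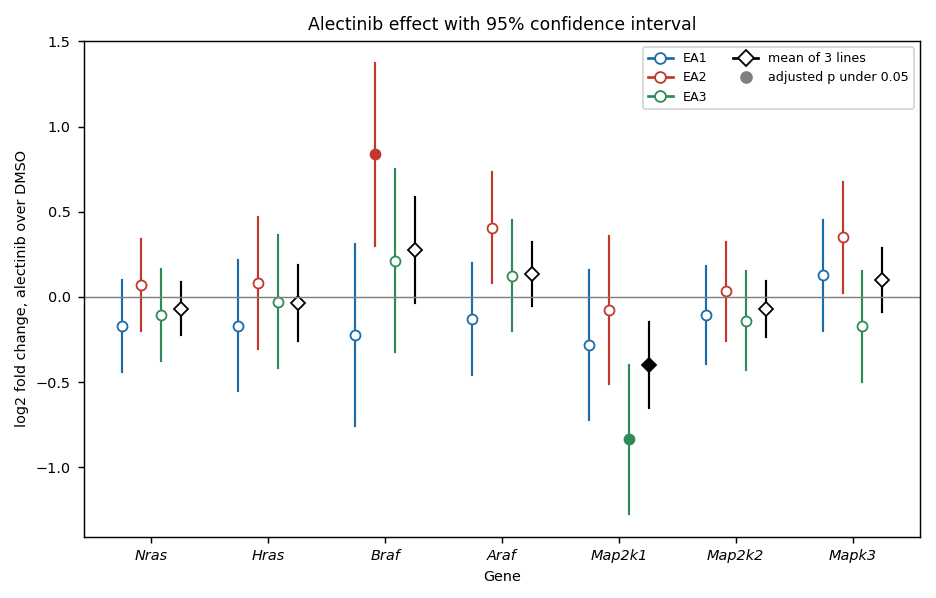
Log2 fold change of alectinib over DMSO (y axis) for each gene (x axis) in EA1, EA2, EA3 and their mean, with bars for the 95% confidence interval of the edgeR fit and filled symbols where the adjusted p-value was under 0.05. Filled symbols are those of Braf in EA2 (0.84) and of Map2k1 in EA3 (-0.84) and over the lines (-0.40), and the other intervals reach 0 except those of Araf and Mapk3 in EA2.

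Untreated levels of the cascade differed between the lines for some genes, tested over the 12 DMSO libraries and 12886 genes. EA2 held less Map2k1 (-0.70, SE 0.21, adjusted p = 0.0177) and less Mapk3 (-0.66, SE 0.19, adjusted p = 0.0163) than EA1, 2 of 7 genes against 40.8% of all genes. EA3 held less Hras (-0.62, SE 0.21, adjusted p = 0.0405) and less Mapk3 (-0.62, SE 0.19, adjusted p = 0.0271) than EA1, again 2 of 7, against 32.6% of all genes. EA3 held more Map2k1 than EA2 (0.62, SE 0.20, adjusted p = 0.0327), 1 of 7 against 36.5%. Of these 5 differences, the DMSO values were apart for Map2k1 between EA3 (119.7 CPM or more) and EA2 (118 CPM or less), and the lines overlapped in the rest. The share of all genes tested that were apart in this way was not counted. Each of these calls was lost when some single days were left out, with adjusted p-values up to 0.115 for Map2k1 and 0.111 for Mapk3 between EA2 and EA1, 0.161 for Hras and 0.166 for Mapk3 between EA3 and EA1, and 0.103 for Map2k1 between EA3 and EA2. Map2k1 between EA2 and EA1 was -0.39 without day 5, and Hras between EA3 and EA1 was -0.35 without day 3. Calls were gained by Map2k2 between EA3 and EA1 without day 3 (0.47, adjusted p = 0.0307) and by Hras between EA3 and EA2 with library size as the only scaling (-0.59, adjusted p = 0.0388). Without the day block the differences in Hras (adjusted p = 0.245) and Mapk3 (adjusted p = 0.0848) between EA3 and EA1 and in Map2k1 between EA3 and EA2 (adjusted p = 0.0958) were not called. With library size as the only scaling, Map2k1 and Mapk3 between EA2 and EA1 and Map2k1 between EA3 and EA2 were not called.

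Levels of different genes were compared per kilobase of exon sequence (CPM per kb, all annotated exons of a gene in GENCODE vM21). Over the 12 DMSO libraries the median was 117 CPM per kb for Mapk3, 40.1 for Map2k1, 32.8 for Nras, 26.5 for Map2k2, 17.9 for Hras, 9.0 for Araf and 2.36 for Braf. Neighbours in this order overlapped in their ranges over libraries, except Araf (6.35 to 12.2) and Braf (1.23 to 4.49). When the length of the principal transcript was used, the medians were 146 for Mapk3, 62.4 for Map2k2, 55.8 for Map2k1, 39.1 for Nras, 24.97 for Araf, 23.7 for Hras and 3.37 for Braf, so that Map2k2 and Araf moved up and Mapk3 and Braf kept the ends. Braf shares 146 exon bases (1.1%) with Ndufb2 on the other strand and Araf 9 bases (0.1%) with Syn1, and the pseudogene Nras-ps2 had 0 counts.

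Some members moved together from library to library. With log2 CPM centred within each line, Hras and Map2k2 correlated at r = 0.83 over the 24 libraries, Nras and Hras at 0.67, and Araf and Mapk3 at 0.64, whereas Nras and Mapk3 had r = -0.57 and Braf and Map2k2 r = -0.55. These points share lines, days and the scaling of the libraries. Among 9919 genes with an average log2 CPM of at least 3, the genes most like Map2k1 were Ankrd37 (r = 0.93), an ankyrin repeat protein, and Pgm1 (0.92), a phosphoglucomutase. Hras was most like Psmc3 (0.93), a subunit of the proteasome, and Ywhae (0.93), a 14-3-3 protein. For Braf, Tmem245 had r = 0.92, and Mapk3 was most like Auh (0.87) and Rab9 (0.86). For Nras the genes were Ncs1 (0.88) and Traf7 (0.85), for Araf Dnase1l1 (0.80) and Tmem86a (0.78), and for Map2k2 Yeats4 (0.87) and Ccz1 (0.85).

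Genes around the cascade were counted from lists grouped by role, to be read against the 33.6% (EA1), 24.4% (EA2) and 32.6% (EA3) of all genes tested that were called in either direction. Of 10 relatives of RAS, EA1 had 2 called higher and 0 lower, EA2 2 and 1, and EA3 3 and 0, with medians of -0.08, 0.16 and 0.19, so that the share called was near or below that of all genes. Of those called in all lines, Mras, a RAS relative that forms a phosphatase complex with SHOC2 acting on RAF, rose in EA1 (0.70, adjusted p = 0.0104), EA2 (1.22, adjusted p = 0.000364) and EA3 (2.13, adjusted p = 8.81e-06). Rit1, another RAS relative, also rose in all lines, by 0.72, 0.93 and 0.77. Of 18 tested regulators of RAS, EA1 had 1 higher and 4 lower, EA2 2 and 3, and EA3 2 and 5, with medians of -0.15, -0.09 and -0.27. Rasgrp3, an exchange factor that loads RAS with GTP, rose in all lines, with means in DMSO and alectinib of 3.20 and 20.2 CPM (EA1), 0.494 and 4.59 CPM (EA2), and 10.2 and 40.5 CPM (EA3). Rasa1, a GTPase activator that switches RAS off, fell in all lines (-0.92, -1.63 and -0.73), as did Fntb, the beta subunit of the farnesyltransferase that anchors RAS (-0.47, -0.67 and -0.57).

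Of 15 tested scaffolds and modulators of RAF, MEK and ERK, EA1 had 2 higher and 3 lower, EA2 2 and 0, and EA3 0 and 1, with medians of 0.10, 0.24 and 0.13, and none was called in 3 lines. Paqr3, which tethers RAF to the Golgi, fell by 1.43 in EA1 (adjusted p = 0.033) and had values of -0.37 and -0.11 in EA2 and EA3. Hsp90ab1, a chaperone of RAF kinases, fell by 0.57 in EA1 and 0.48 in EA3 (adjusted p = 0.00378 and 0.00977) and had a value of -0.26 in EA2 (adjusted p = 0.155). Of 11 ERK substrates, EA1 had 1 higher and 4 lower, EA2 1 and 3, and EA3 0 and 3, with medians of -0.24, 0.01 and -0.15. The kinases Rps6ka2 (-1.97, -1.02 and -1.33) and Rps6ka4 (-0.52, -0.97 and -1.27) fell in all lines. Of 19 genes of other MAP kinase cascades, EA1 had 0 higher and 3 lower, EA2 1 and 2, and EA3 0 and 2, with medians of -0.10, -0.01 and -0.23, and Map2k6, which encodes a kinase upstream of p38, fell in all lines (-0.87, -2.16 and -1.95).

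Of 19 genes known to be transcribed in response to ERK signaling, 13 were lower in EA1, 15 in EA2 and 15 in EA3, 1 was higher in each line, against the same shares of all genes called in either direction (33.6%, 24.4% and 32.6%), and the medians were -1.23, -2.94 and -1.60. The medians over all genes tested were 0.06 in EA1 and 0.07 in EA3, and in EA2 the median lay at 0. Spry4, an inhibitor of receptor signaling, fell in all lines, with means in DMSO and alectinib of 67.2 and 3.62 CPM (EA1), 45.2 and 0.279 CPM (EA2), and 54.0 and 1.06 CPM (EA3). Dusp6, the phosphatase that removes phosphate from ERK, fell in all lines (-2.34, -5.03 and -3.28), as did the transcription factor genes Etv4 (-4.08, -6.59 and -4.03) and Etv5 (-3.66, -6.66 and -4.49). Beside these, the largest change among the 7 cascade genes in any line was 0.84 in size, for Braf in EA2 and Map2k1 in EA3.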

How the data were processed

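RNA was sequenced from EA1, EA2 and EA3 cultures with alectinib or DMSO. Per the labels and the methods of the study, the authors checked reads with FastQC, trimmed adapters with bbduk, used STAR for alignment to mm10 and for counting. The deposited table gives, for each gene, the count without normalization. The libraries came from a stranded mRNA kit, and the strand setting of the counter and the annotation release are not given in the sources used here, so a few reads of overlapping genes could be counted with a member. The table has 55415 lines, of which 24 carry date numbers in place of a gene (0.129% to 0.201% of counts) and were left out. Library totals were 5780062 to 11732401 counts. Intervals of the alectinib effect cover the day-to-day variation of the same-day difference between treatments, pooled over the lines.

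The tools were edgeR 4.0.16 (TMM, filterByExpr by line and treatment, robust quasi-likelihood test) and, for an alternative, DESeq2 1.42.0, both under R 4.3.3. Python 3.11.15 made the summaries. A single model held the 24 libraries up to day 5, with 12 terms for the combinations of line and day and an alectinib term per line. Further fits took the 12 DMSO libraries, with day and line as factors, and the change of the effect with log2 of the day. DMSO and alectinib libraries of a line and day share a culture day. Their deviations from the group means correlated between -0.300 and 0.549 across genes, over 0.1 in 6 of 12 pairs. Ratios of paralogs used counts plus 0.5 and an exact sign-flip permutation test. Exon lengths and positions came from GENCODE vM21 (mm10), in which 55314 of the 55391 symbols were found, and promoters from RefSeq (GRCm38.p6).

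As alternatives, single days were omitted, the day 7 pair was included (26 libraries), lines were fitted separately, or the day block was dropped. Scaling was changed to DESeq2 size factors or to library size, the filter was removed or set to a minimum of 10 counts per library, DESeq2 replaced edgeR, and ratios used counts plus 2. The long minus short index as a covariate and the principal transcript length were added after seeing the data. Named were every member, the 2 genes most like each member, the list genes called in all 3 lines in 1 direction (at most 4, or else the 2 with the largest mean effect of those called), and genes that overlap a member. Some items that this rule or the labels name are not reported here. The members and lists were chosen with earlier results of these data known.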

Additional observations from a re-analysis of the deposited data

Results flagged for a closer look

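The pair of libraries labelled EA3 day 7 lay outside the comparisons, and in the alectinib library of that pair 2 of the 7 genes exceeded all DMSO libraries labelled EA3. The share of all genes that did so was not counted, so this number is not a result about the 7 genes as a set. Hras stood at 73.9 CPM there, against 45.8 CPM in the day 7 DMSO library and 29.6 to 72.0 CPM in EA3 DMSO on days 1 to 5. Araf stood at 81.6 CPM, against 61.8 CPM on day 7 in DMSO and 41.5 to 60.5 CPM on days 1 to 5. There was 1 library per treatment on day 7, so the difference has no replicate check. Across genes, log2 CPM of the alectinib day 7 library correlated with the line means at 0.989 for EA2, 0.897 for EA3 and 0.880 for EA1, and that of the DMSO day 7 library at 0.969 for EA2, 0.906 for EA3 and 0.904 for EA1. The day 7 libraries were thus more like EA2 than the line on their label, and the values above are given for the libraries as labelled. Set beside EA2, where Hras ranged from 44.6 to 101 CPM over both treatments and Araf from 70.7 to 94.1 CPM in alectinib, the day 7 alectinib values of both genes lay inside the range. The other genes were, in DMSO and alectinib on day 7, at 204 and 181 CPM for Nras, 66.5 and 43.9 CPM for Braf, 134 and 102 CPM for Map2k1, 119 and 163 CPM for Map2k2, and 270.0 and 275 CPM for Mapk3. Their alectinib values also lay inside the EA2 alectinib ranges, but not all DMSO values lay inside the EA2 DMSO ranges. Braf, Map2k1 and Mapk3 lay above them (at most 35.2, 118 and 266 CPM) and Map2k2 below (at least 147 CPM). Braf was lower with alectinib on day 7 (log2 ratio -0.60), opposite in direction to its effect in EA2 (0.84). Dixon's test called no value an outlier in the 42 groups of 4 values examined. The values of a group come from different days, so this test cannot separate an outlying library from a change with time. No conclusion is drawn from it. Map2k1 in EA1 DMSO was not called, although it stood at 327 CPM on day 5 against 117 to 154 CPM on the earlier days. Without day 5 the alectinib effect on Map2k1 in EA1 was -0.02.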

How the results depend on the processing

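Direction and side of the threshold held in 632 of 700 comparisons of a member's value with an alternative, and the calls of Map2k1 in EA3 and over the lines held in all that were run. Without the day as replicate block, the called genes numbered 4426 (EA1), 2881 (EA2) and 4166 (EA3) (4791, 3475 and 4650 with it), and Braf in EA2 was lost (0.90, adjusted p = 0.0577). The number of genes that differed between lines (976) was 1963 with DESeq2, 2698 without a filter, 398 with all 26 libraries and 211 to 792 when a day was left out. The number changing over days (431) was 1238 with DESeq2 and 0 to 1156 when a day was left out, which also gave 2796 to 4088 genes (EA1), 2142 to 2654 (EA2) and 2836 to 3889 (EA3), and in DMSO 2525 to 3975 for EA3 against EA1 and 3067 to 4601 for EA3 against EA2. Library size alone shifted the median of all genes by 0.12 in EA3, 0.18 for EA2 against EA1 in DMSO and -0.15 for EA3 against EA2, and reversed small values that had not passed the test: Map2k2 in EA2 (-0.0181), Nras (0.00793) and Hras (0.0872) in EA3, Hras over the lines (0.0129), Braf over days (0.00893), and Map2k2 (-0.14) and Mapk3 (-0.12) between EA3 and EA2 in DMSO. It also lost Map2k1 (adjusted p = 0.053) and Mapk3 (adjusted p = 0.0676) between EA2 and EA1 and Map2k1 between EA3 and EA2 (adjusted p = 0.0795). Map2k2 between EA3 and EA2 was -0.0106 without a filter and -0.0076 with at least 10 counts, its change over days was -0.0151 with DESeq2 and -0.0152 with DESeq2 size factors, Hras in EA3 was 0.0814 with all 26 libraries, and with the long minus short index Braf was 0.0487 in EA1 and -0.0331 in EA3 and Hras 0.0157 in EA3. Leaving out a day turned the sign of values near 0, with ranges of -0.0489 to 0.15 for Mapk3 in EA1, -0.0439 to 0.0873 for Map2k2, -0.0215 to 0.11 for Nras and -0.0381 to 0.20 for Hras in EA2, -0.24 to 0.0838 for Hras and -0.11 to 0.44 for Braf in EA3, and -0.15 to 0.0451 for Hras over the lines. In DMSO the ranges were -0.13 to 0.25 for Araf and -0.34 to 0.0594 for Hras between EA2 and EA1, -0.17 to 0.0862 for Map2k1 between EA3 and EA1, and -0.0666 to 0.17 for Map2k2 and -0.11 to 0.20 for Mapk3 between EA3 and EA2. They were -0.0509 to 0.0296 for Map2k2 and -0.42 to 0.0407 for Braf over days, and -0.13 to 0.28 for the ratio of Braf to Araf and -0.0521 to 0.15 for that of Hras to Nras. The cause of these changes was not tested. At 4 days a line, the 95% interval of an effect was 0.27 to 0.54 wide on either side before adjustment, and effects somewhat larger than this could still miss the adjusted threshold, as Araf and Mapk3 did in EA2.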
